A study of Homo sapiens with 6 samples.

Results

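The Fanconi anemia genes examined here are *FANCA*, *FANCB*, *FANCC*, *FANCE*, *FANCF*, *FANCG* and *FANCL* of the core complex, its anchor *FANCM*, and the ID2 pair *FANCD2* and *FANCI*. They were chosen by symbol, and each of the 10 genes matched 1 of the 47577 loci in the deposited table, of which 26793 carry a symbol. Their expression was compared between OVCAR3 cells, a line of high-grade serous ovarian cancer (HGSOC), treated for 6 h with DMSO, the solvent (3 libraries), and the same line treated for 6 h with 200 nM THZ531, a covalent inhibitor of the transcriptional kinases CDK12 and CDK13 (3 libraries). The compound is THZ531 in the sample titles but THZ1, a related inhibitor, in the treatment protocol of the labels, with the dose unchanged, and the name in the titles is used here. All libraries come from a single cell line in culture, and the treatment field of the labels gives no other agent.

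The Fanconi anemia pathway repairs crosslinks between the DNA strands and protects stalled replication forks. FANCM recognizes the lesion and anchors the core complex, a ubiquitin ligase in which FANCL is the catalytic subunit, and the complex attaches ubiquitin to FANCD2 and FANCI. The modified ID2 pair brings nucleases to the crosslink, and the resulting break is then repaired by homologous recombination with BRCA1 and BRCA2. The pathway matters in ovarian cancer because cells that lack it are sensitive to platinum drugs, and because *FANCF* can be silenced by promoter methylation in ovarian tumors.

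The number of reads counted on genes ranged from 60146046 to 70986130 per library in DMSO and from 53054048 to 57953296 in THZ531. Depth thus differed with the treatment. The members held between 203 and 7585 reads each per library. The values are read counts divided by a size factor for each library (normalized reads), which are not corrected for gene length. They are given per locus and do not separate full-length from shortened transcripts. A gene was taken as expressed with at least 10 normalized reads in at least 3 of the 6 libraries, and all 10 members passed. It was called regulated (risen or fallen) when the groups differed 1.5-fold or more and the p-value of limma before adjustment was 0.05 or less. The model was fitted on log2(normalized reads + 1) over all 17568 expressed loci, and adjusted p-values are Benjamini-Hochberg values over the same loci. Adding 1 makes fold changes of genes with few reads too small. The labels number the 3 libraries of a treatment as replicates and do not say whether they came from separate cultures, so the p-values measure the spread between these libraries, which may be technical. The serous markers *PAX8*, *WT1*, *MUC16*, *KRT7*, *KRT8*, *KRT18*, *EPCAM* and *MSLN* were all expressed. *PAX8* fell 9.09-fold (log2 fold change -3.18), and the other 7 were not called, with log2 fold changes from -0.46 to 0.58. Of 8 markers of other cell types, *CD3E* and *ALB* were at 0 in every library, and the sum over all 8 was 1151 to 1235 normalized reads in DMSO and 2276 to 2554 in THZ531, mostly from *COL1A1*. Their part in the results below was not tested. *CDK12* itself had a log2 fold change of 0.39 and *CDK13* of -0.02, and neither was called regulated.

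The 10 genes did not change in a common direction after THZ531. Of the 10 genes, *FANCA*, *FANCL* and *FANCM* rose, *FANCF* fell, and 6 were not called regulated, so that 4 of 10 (40%) were regulated. Among all 15278 expressed loci with a symbol the share was 37.0%, with 13.3% risen and 23.7% fallen, so the share among the members was close to the background. The median log2 fold change of the members was 0.02, against -0.02 for all expressed loci with a symbol. Without a threshold on the fold change, 7 of 10 members had an adjusted p of 0.05 or less in limma, 4 with higher and 3 with lower values after THZ531, against 70.2% of the loci with a symbol. The same 7 genes had no overlap between the groups, and among the loci with a symbol 36.1% were higher and 36.8% lower without overlap. The plot of normalized reads by library shows how far each gene moved relative to the spread between libraries.

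**Figure D1:**
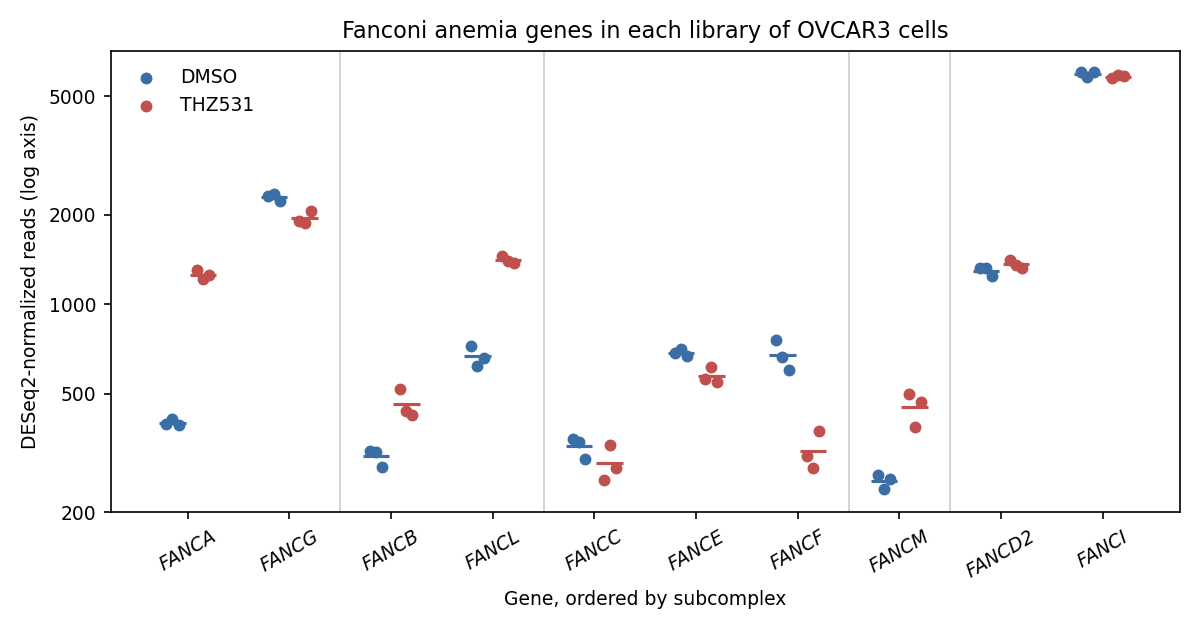
Normalized reads (log axis) of each gene in the 3 DMSO and the 3 THZ531 libraries, with points for libraries and short lines for group means, and vertical lines between the subcomplexes. *FANCA* and *FANCL* stand well above their DMSO values after THZ531 and *FANCF* below, whereas the points of *FANCD2* and *FANCI* overlap.

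The A-G subcomplex was split. *FANCA* (chromosome 16, 89737549 to 89816657 on hg38) encodes a structural subunit of the core complex. Its normalized reads, in the order of the replicate numbers here and below, were 396, 412 and 394 in DMSO and 1300, 1212 and 1253 in THZ531. All THZ531 libraries were thus far above all DMSO libraries, and *FANCA* rose 3.12-fold (log2 fold change 1.64, standard error 0.08, adjusted p = 2.5e-11, limma), more than any other member. *FANCG* (chromosome 9, 35073833 to 35080047), whose protein binds FANCA directly, had 2305, 2353 and 2216 normalized reads in DMSO and 1912, 1871 and 2052 in THZ531. The groups did not overlap, but the decrease was small, at -0.24 on the log2 scale (95% confidence interval from -0.35 to -0.12, adjusted p = 0.001, limma), and *FANCG* was not called regulated.

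Of the B-L pair, *FANCL* rose and *FANCB* was not called regulated. *FANCL* (chromosome 2, 58159243 to 58241380) encodes the RING subunit that transfers ubiquitin. Its normalized reads were 725, 623 and 661 in DMSO and 1452, 1396 and 1375 in THZ531. No library of either group came near the other group, and *FANCL* rose 2.10-fold (log2 fold change 1.07, standard error 0.07, adjusted p = 2.1e-09, limma). Its partner *FANCB* (chromosome X, 14843405 to 14873069), which holds FANCL in the complex, had 322, 319 and 284 normalized reads in DMSO and 521, 439 and 424 in THZ531. The values of *FANCB* did not overlap either, and its 1.49-fold difference (log2 fold change 0.58, standard error 0.11, adjusted p = 2.6e-04, limma) stayed just under the threshold of 1.5. It passed the threshold when DMSO replicate 1 (log2 fold change 0.61) or 2 (0.60), or THZ531 replicate 2 (0.61) or 3 (0.63), was left out, but not without DMSO replicate 3 (0.52) or THZ531 replicate 1 (0.48).

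In the C-E-F subcomplex, which links the core complex to FANCD2, *FANCF* fell while *FANCC* and *FANCE* did not pass the thresholds. *FANCF* (chromosome 11, 22622533 to 22625841) encodes an adaptor that joins this subcomplex to the A-G proteins. It had 761, 663 and 600 normalized reads in DMSO and 309, 282 and 375 in THZ531. The lowest DMSO library was well above the highest THZ531 library, and *FANCF* fell 2.10-fold (log2 fold change -1.07, standard error 0.12, adjusted p = 7.4e-07, limma). *FANCE* (chromosome 6, 35452338 to 35467104), whose protein contacts FANCD2, had 684, 706 and 672 normalized reads in DMSO and 562, 615 and 549 in THZ531. That is a log2 fold change of -0.26 without overlap between the groups (95% confidence interval from -0.43 to -0.08, adjusted p = 0.011, limma). For *FANCC* (chromosome 9, 95099054 to 95317709) the normalized reads were 352, 345 and 302 in DMSO and 256, 338 and 282 in THZ531. Here the groups overlapped, and the interval of the log2 fold change (-0.20, from -0.47 to 0.07, adjusted p = 0.18, limma) included 0.

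The DNA-binding translocase *FANCM* (chromosome 14, 45135930 to 45200890) had 268, 240 and 259 normalized reads in DMSO, against 499, 386 and 471 in THZ531. The THZ531 libraries varied among themselves, but the lowest of them was above all DMSO libraries, and *FANCM* rose 1.76-fold (log2 fold change 0.81, standard error 0.12, adjusted p = 1.6e-05, limma). Neither substrate of the complex was called regulated. *FANCD2* (chromosome 3, 10026414 to 10101932) had 1321, 1323 and 1242 normalized reads in DMSO and 1412, 1356 and 1323 in THZ531, and *FANCI* (chromosome 15, 89243967 to 89317259) had 6011, 5818 and 6052 in DMSO and 5741, 5888 and 5837 in THZ531. The groups overlapped for both genes. The 95% confidence interval of the log2 fold change ran from -0.05 to 0.20 for *FANCD2* and from -0.12 to 0.05 for *FANCI*, so a change of 1.5-fold lies outside both intervals with the deposited scaling.

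These directions depend in part on how the libraries are scaled. Scaling each library to the same total moved the median log2 fold change of all expressed loci from -0.01 to -0.25, and scaling to *RPL34*, the reference transcript (L34) of qPCR assays in the study, moved it to -0.50. *FANCA* rose under each of the 3 scalings shown in the plot of changes (log2 fold change 1.64 as deposited, 1.40 with equal totals, 1.15 with *RPL34*), and *FANCF* fell under each of them (-1.07, -1.31 and -1.56). *FANCL* was called with the same total (0.83) but not with *RPL34* (0.58), and *FANCM* with neither (0.57 and 0.32). The log2 fold change of *FANCB* was 0.33 with equal totals and 0.08 with *RPL34*. With *RPL34*, *FANCG* (-0.73), *FANCC* (-0.69) and *FANCE* (-0.75) were called as fallen in addition to *FANCF*.

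**Figure D2:**
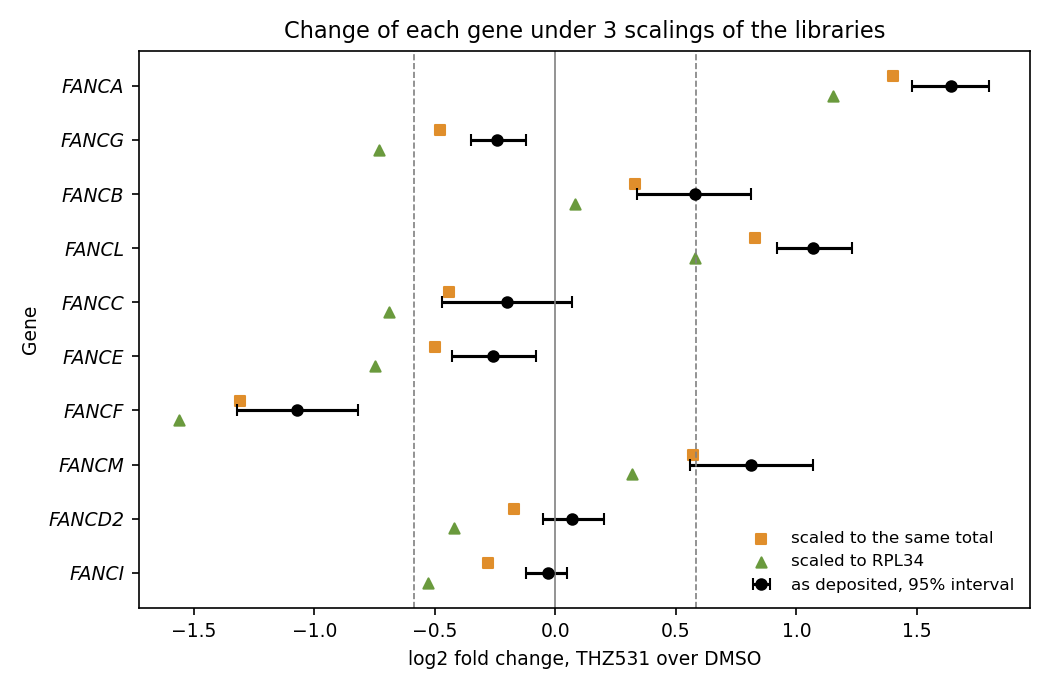
Log2 fold change of each gene (THZ531 over DMSO) with the deposited scaling (circles, with 95% confidence intervals), with libraries scaled to the same total (squares) and to *RPL34* (triangles), where dashed lines mark a fold change of 1.5. The other scalings shift all genes to the left by a similar amount, and *FANCA* stays above the upper line and *FANCF* below the lower line in all 3.

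A ratio of partners within a library does not depend on the scaling. For *FANCA* to *FANCG* the log2 ratio was -2.54, -2.51 and -2.49 in the DMSO libraries and -0.56, -0.63 and -0.71 in the THZ531 libraries. *FANCA* thus went from 0.175 to 0.645 normalized reads for each normalized read of *FANCG*, a difference of 1.88 on the log2 scale (two-sided exact permutation test over 3 against 3 libraries, p = 0.1, the smallest p this design allows; 0.15 after Benjamini-Hochberg adjustment over the 6 pairs compared). The ratio of *FANCL* to *FANCB* went from 1.11 ± 0.14 to 1.61 ± 0.12 on the log2 scale (SD, n = 3; exact permutation p = 0.1, adjusted 0.15), so *FANCL* gained on its partner although both had higher values after THZ531. *FANCF* lost ground to both partners, by -0.87 on the log2 scale against *FANCC* and by -0.81 against *FANCE* (exact permutation p = 0.1 for each, adjusted 0.15). In contrast, the log2 ratio of *FANCE* to *FANCC* differed by -0.06 between the treatments (exact permutation p = 0.6, adjusted 0.6), with overlapping libraries. The ratio of *FANCI* to *FANCD2* was 2.20 ± 0.08 on the log2 scale in DMSO and 2.09 ± 0.06 in THZ531 (SD, n = 3; exact permutation p = 0.2, adjusted 0.24), and its libraries overlapped too.

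**Figure D3:**
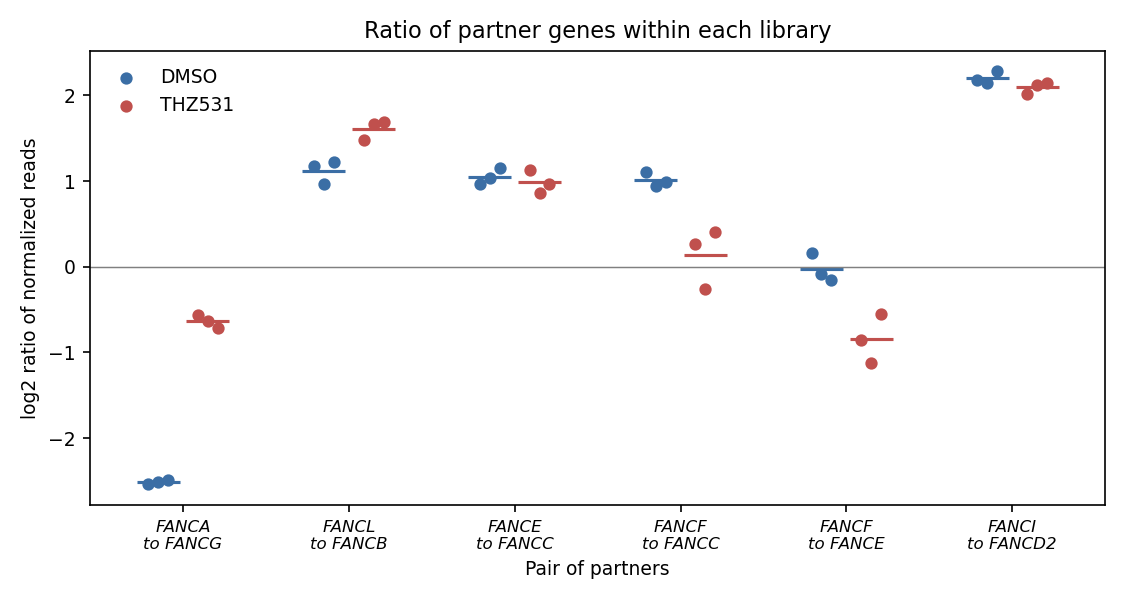
Log2 ratio of normalized reads for 6 pairs of partner genes in each of the 3 DMSO and 3 THZ531 libraries, with points for libraries and short lines for means. The ratio of *FANCA* to *FANCG* moved by 1.88, whereas the ratios of *FANCE* to *FANCC* and of *FANCI* to *FANCD2* overlapped between the treatments.

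To compare levels between genes, normalized reads were divided by the length of the spliced MANE transcript of GENCODE v44. In DMSO the order of the level per kb was *FANCI* (1260), *FANCG* (896), *FANCL* (404), *FANCE* (267), *FANCD2* (254), *FANCF* (205), *FANCB* (102), *FANCA* (73.5), *FANCC* (72.5) and *FANCM* (35.9). Neighbors in this order did not overlap between libraries, except *FANCA* and *FANCC*. After THZ531 *FANCA* stood at 230 per kb, overlapping *FANCE* (223), and *FANCL* at 849, above *FANCG* (761). *FANCF* stood at 97.8 per kb, and *FANCC* (63.6) and *FANCM* (63.4) were the lowest and overlapped. The level of the catalytic subunit *FANCL* per kb was thus higher than that of *FANCB*, *FANCA* and *FANCF* in both treatments.

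The promoters of the 4 regulated members are shown because these genes moved in opposite directions. The sequences are from RefSeq (GRCh38.p14), in which 9 of the 10 members had an entry, all but *FANCI*. Each is the 150 bases before the transcription start, 5′ to 3′ on the strand of the gene, and capitals mark CCAAT boxes (CCAAT or its reverse complement ATTGG) and GC boxes (GGGCGG or CCGCCC).
FANCA, risen, minus strand, chr16:89816648-89816797: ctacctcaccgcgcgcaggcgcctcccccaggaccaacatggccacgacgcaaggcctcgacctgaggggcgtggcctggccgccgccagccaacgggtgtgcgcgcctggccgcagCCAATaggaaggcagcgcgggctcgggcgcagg
FANCL, risen, minus strand, chr2:58241326-58241475: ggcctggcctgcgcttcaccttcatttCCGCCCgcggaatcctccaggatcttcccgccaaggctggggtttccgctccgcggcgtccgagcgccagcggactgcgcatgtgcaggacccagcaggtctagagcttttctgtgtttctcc
FANCM, risen, plus strand, chr14:45135780-45135929: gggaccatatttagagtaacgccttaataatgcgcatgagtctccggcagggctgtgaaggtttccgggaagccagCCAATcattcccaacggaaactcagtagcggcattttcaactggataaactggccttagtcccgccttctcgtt
FANCF, fallen, minus strand, chr11:22625824-22625973: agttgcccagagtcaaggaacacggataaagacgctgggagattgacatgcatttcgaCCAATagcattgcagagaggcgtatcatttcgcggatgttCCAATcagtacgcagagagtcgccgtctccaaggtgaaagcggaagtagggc
In the 250 bases before the start, a CCAAT box on either strand was found in *FANCA*, *FANCM* and *FANCF* and in none of the other 6 members with an entry. The box was found in 33.0% of all 27305 promoters and 35.1% of the 10704 promoters of expressed genes, so the share among the 9 members was close to both. It was thus present in genes that rose and in the gene that fell. A GC box was found in 6 members, *FANCA*, *FANCG*, *FANCB*, *FANCL*, *FANCC* and *FANCE*, against 42.3% of all promoters but 67.1% of those of expressed genes, so the share among the 9 members was close to that of expressed genes. The E2F-type letters TTTCGCGC, on either strand, were found in *FANCC*, against 0.469% of all promoters and 0.859% of those of expressed genes. Of the other letters searched, TTTCCCGC and TTTGAA were found in *FANCC* (2.17% and 8.39% of promoters of expressed genes). CCGGAAGT was found in *FANCD2* (6.76%), and TTTGGCGC and TATAAA in no member with an entry (0.822% and 5.75%). The GC content of these 250 bases was 72.0% in *FANCA* and 62.0% in *FANCL*, but 49.2% in *FANCF* and 46.4% in *FANCM*, against a median of 58.0% over all promoters. These matches are a description of the sequence and show no binding.

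The members also differ in gene structure. *FANCF*, which fell, is 3.29 kb long and consists of 1 exon, without introns. The genes that rose, *FANCA*, *FANCL* and *FANCM*, span 79.1, 82.1 and 65.0 kb with 43, 14 and 23 exons in the MANE transcript. The members that were not regulated had a wide range of lengths. *FANCC*, the longest member, spans 219 kb with 15 exons, *FANCD2* 75.5 kb with 44 exons and *FANCI* 73.2 kb with 38 exons. *FANCB*, *FANCE* and *FANCG* span 29.7, 14.8 and 6.1 kb with 10, 10 and 14 exons. The part of gene structure in the changes was not tested. The median over all 13244 expressed genes with a MANE transcript was 27.6 kb and 9 exons. On the strand of the gene, the introns hold 22 copies of the polyadenylation motif AATAAA in *FANCA*, 74 in *FANCL* and 65 in *FANCM*, against 65 in *FANCD2*, 69 in *FANCI*, 204 in *FANCC* and none in *FANCG*. Per 10 kb of intron the density was 2.99 in *FANCA* and 3.28 in *FANCE*, which was not regulated, against 9.20 to 11.2 in *FANCB*, *FANCL*, *FANCC*, *FANCM*, *FANCD2* and *FANCI*.

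Within *FANCC* the deposited table lists a locus without a symbol that rose while the gene did not. It lies in intron 10 of the MANE transcript (chromosome 9, 95121876 to 95124066; intron from 95117391 to 95125085, minus strand). Its normalized reads were 1.59, 5.57 and 6.38 in DMSO and 34.0, 20.5 and 27.3 in THZ531. The counts are low. All DMSO values were below the minimum of 10, so the locus passed as expressed only through the THZ531 libraries. The lack of overlap between the groups follows from that selection. The locus rose by 2.47 ± 0.57 on the log2 scale (± standard error, adjusted p = 0.0011, limma), and this p-value takes no account of the selection. Its log2 fold change was 1.36 with a pseudocount of 10 and 2.76 with 0.1, and with a minimum of 50 the locus was not tested. The locus covers bases 1020 to 3210 of the 7695 bases of the intron, counted from the 5′ splice site. It holds 2 copies of AATAAA on the strand of *FANCC*, and no copy precedes it in the intron. The introns of *FANCC* hold 9.53 copies per 10 kb, so 2 copies in the 2191 bases of the locus are near that density. Use of the motifs was not tested. These motifs are shown with 20 bases on either side on hg38, because the locus lies over the first such motifs of the intron, with AATAAA in capitals.
FANCC intron 10, motif 1751 bases in, minus strand, chr9:95123310-95123355: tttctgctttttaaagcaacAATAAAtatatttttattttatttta
FANCC intron 10, motif 2820 bases in, minus strand, chr9:95122241-95122286: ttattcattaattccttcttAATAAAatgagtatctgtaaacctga
The table gives no strand and no coverage along the locus, so whether its reads belong to a transcript of *FANCC* cannot be told apart from transcription on the other strand. A further locus without a symbol overlaps it (95122930 to 95125030) and had at most 3.19 normalized reads in any library.

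**Figure D4:**
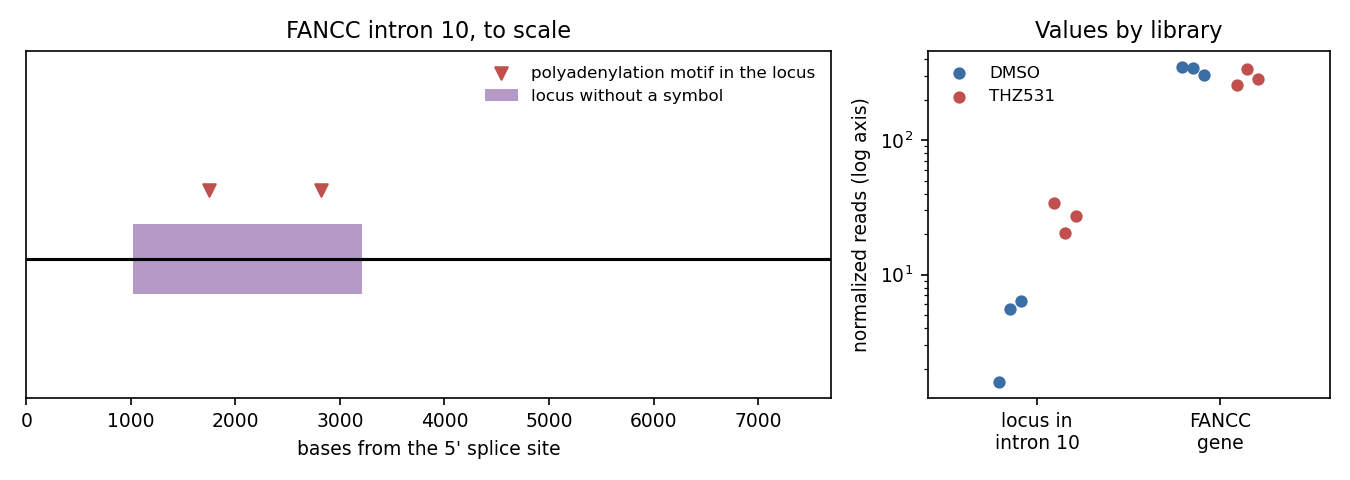
Left, *FANCC* intron 10 drawn to scale in bases from the 5′ splice site, with the locus without a symbol (box) and the 2 polyadenylation motifs inside it (triangles); right, normalized reads (log axis) of that locus and of *FANCC* in each library. The locus was higher in all 3 THZ531 libraries than in the DMSO libraries, but it passed the minimum for expression only through the THZ531 libraries. The libraries of *FANCC* overlapped.

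Other members share bases with neighboring genes, which matters because the strand setting of the read counting is not given in the sources used here. *FANCA* shares 3377 bases with *ZNF276* on the opposite strand, and *ZNF276* fell (log2 fold change -0.80, adjusted p = 7.6e-06, limma) while *FANCA* rose. *FANCL* shares 678 bases with *VRK2* (log2 fold change 0.14, adjusted p = 0.068, limma) and *FANCI* 957 bases with *POLG* (log2 fold change 0.20, adjusted p = 0.0012, limma), and neither neighbor was called regulated. A locus without a symbol that shares 333 bases with the 5′ end of *FANCF* had 19.9 to 45.3 normalized reads in DMSO and 22.7 to 35.2 in THZ531, with overlapping groups. *FANCD2OS*, which shares 20613 bases with *FANCD2* on the opposite strand, was at 0 in every library.

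Among the other genes of the pathway, 17 fell and 2 rose. A list of 33 other genes of the pathway was used, of which 31 are in the table and all 31 were expressed, whereas *SLX1A* and *SLX1B* were not analysed here. Of the 31 genes, 12 were not called, so that 61.3% were regulated, against 37.0% of the loci with a symbol (13.3% risen and 23.7% fallen). The median log2 fold change of the 31 genes was -0.70, against -0.02. No test of the list against other genes was made. The list was fixed with earlier results of these data known, so these values do not measure an excess over other genes. All 17 kept their call under each of the 19 alternatives except a fold change threshold of 2, under which 10 did.

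The enzymes that act on ubiquitin moved in opposite directions. *UBE2T*, the E2 enzyme that works with FANCL, had 1736, 1704 and 1786 normalized reads in DMSO and 1010, 1030 and 1043 in THZ531, and fell 1.69-fold (log2 fold change -0.76, adjusted p = 8.1e-09, limma) while *FANCL* rose. *USP1*, the protease that removes ubiquitin from the ID2 pair, had 6163, 5911 and 6010 normalized reads in DMSO and 9517, 8977 and 9177 in THZ531. It rose 1.53-fold (log2 fold change 0.61, adjusted p = 9.4e-10, limma), but it was not called with the same total (0.37) or with *RPL34* (0.12). Its cofactor *WDR48* had a log2 fold change of 0.43 and was not called. Among the accessory subunits of the core complex, *FAAP24*, the partner of FANCM, fell from 537 ± 51.7 to 291 ± 1.84 normalized reads (SD, n = 3; log2 fold change -0.88, adjusted p = 1.4e-06, limma) while *FANCM* rose. The other 4 accessory genes, *FAAP20*, *FAAP100*, *CENPS* and *CENPX*, had log2 fold changes from -0.58 to 0.24 and were not called, but *FAAP100* (-0.58) was called as fallen in 9 of the 19 alternatives, edgeR (-0.61) and DESeq2 (-0.59) among them.

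Of the 5 genes of nucleases and their partners without a FANC number, 3 fell, against 23.7% of all expressed loci with a symbol. *SLX4* and *ERCC4*, which carry such a number, fell too. *SLX4* (FANCP), the platform on which some of these nucleases assemble, had 1008, 1143 and 1042 normalized reads in DMSO and 199, 188 and 167 in THZ531. With a 5.75-fold decrease it fell most of all 41 pathway genes measured (log2 fold change -2.52, adjusted p = 6.1e-12, limma). *MUS81* fell from 2796 ± 77.0 to 957 ± 18.5 normalized reads and its partner *EME1* from 914 ± 59.7 to 379 ± 70.8 (SD, n = 3; log2 fold change -1.55 and -1.28). *ERCC4* (FANCQ), which encodes the nuclease XPF, fell from 161 ± 32.6 to 62.9 ± 9.57 normalized reads (SD, n = 3; log2 fold change -1.33), whereas its partner *ERCC1* had a log2 fold change of -0.06 with overlapping libraries. *FAN1* fell with a log2 fold change of -0.70, and *DCLRE1A* (-0.02) was not called.

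Of the 11 other genes with a FANC number, 7 fell, *SLX4* and *ERCC4* among them, against 23.7% of all expressed loci with a symbol. *BRCA1* (FANCS), which acts early in homologous recombination, had 672, 742 and 725 normalized reads in DMSO and 176, 183 and 197 in THZ531, a 3.83-fold decrease (log2 fold change -1.94, adjusted p = 1.5e-10, limma). *XRCC2* (FANCU), which also acts in recombination, fell from 3606 ± 378 to 1051 ± 57.2 normalized reads (SD, n = 3; log2 fold change -1.77), and *RFWD3* (FANCW), a ubiquitin ligase, with a log2 fold change of -1.20. *RAD51C* (FANCO) and *BRCA2* (FANCD1) fell less, with log2 fold changes of -0.72 and -0.63. *BRIP1* (FANCJ), a helicase, rose from 713 ± 79.6 to 1111 ± 47.0 normalized reads (SD, n = 3; log2 fold change 0.64, adjusted p = 4.5e-06, limma), but its call was lost without DMSO replicate 1 (0.55), when scaled to equal totals (0.40) or to *RPL34* (0.15). *PALB2* (FANCN) and *MAD2L2* (FANCV) were not called, with log2 fold changes of -0.18 and 0.09.

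All 4 genes of the complex of the BLM helicase, which takes apart recombination intermediates, fell, against 23.7% of all expressed loci with a symbol. Their log2 fold changes were -1.48 for *RMI1*, -1.27 for *RMI2*, -0.80 for *BLM* and -0.74 for *TOP3A*. In ATR signaling, which activates the pathway at stalled forks, the locus that joins *ATRIP* with *TREX1* fell (log2 fold change -2.04), and its reads cannot be assigned to either gene. *ATR* (-0.50) and *CHEK1* (0.47) were not called, although *ATR* was called as fallen with equal totals (-0.74) and with *RPL34* (-0.99).

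**Figure D5:**
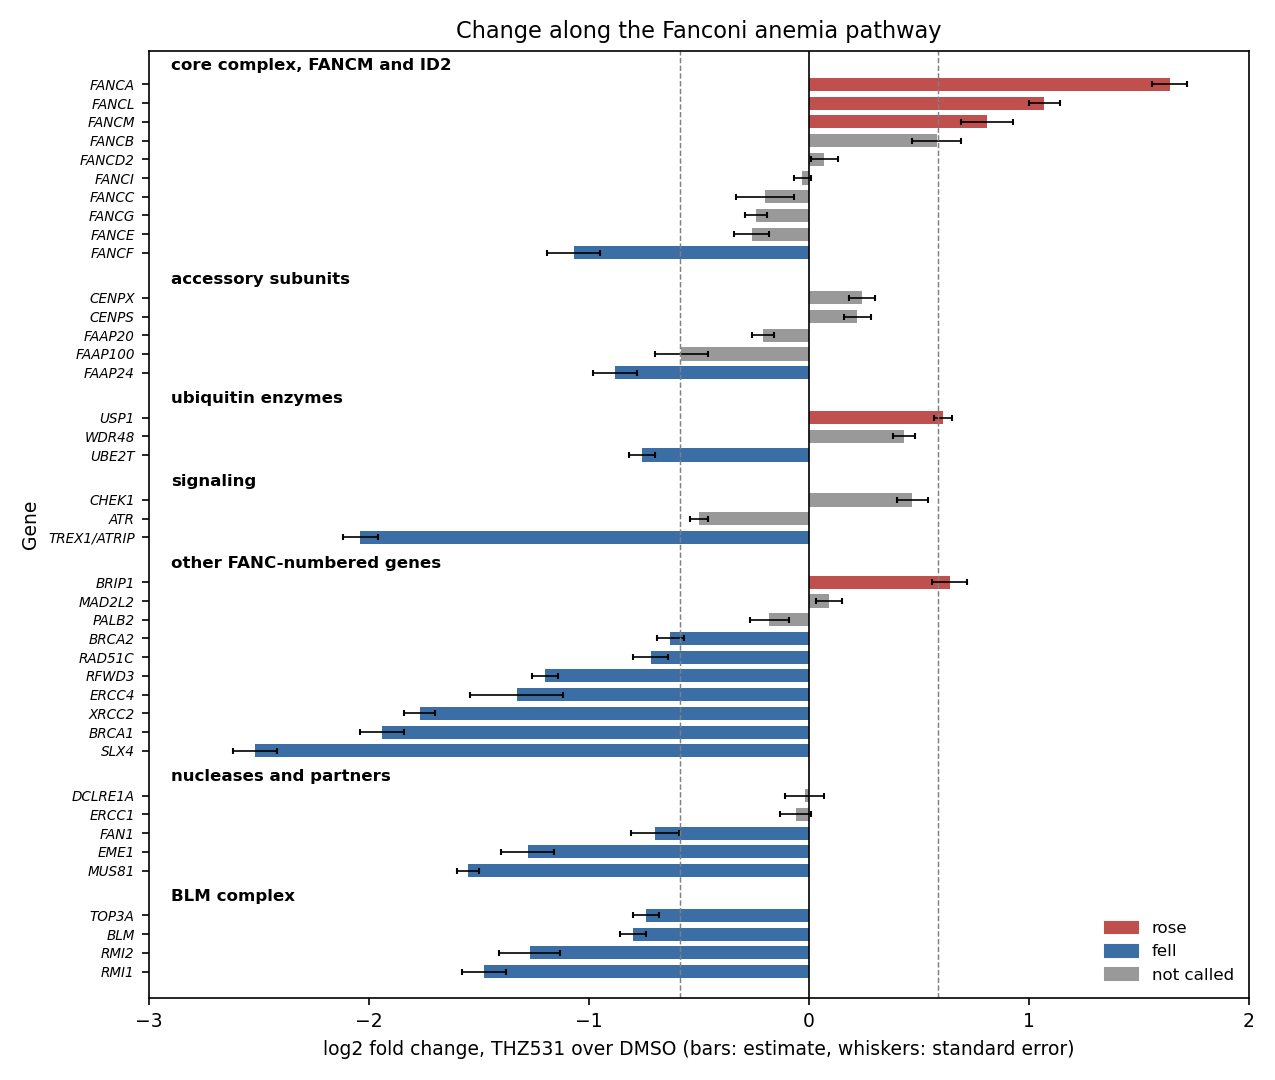
Log2 fold change (THZ531 over DMSO) of the 10 members and of other pathway genes, grouped by role, with whiskers for the standard error, dashed lines at a fold change of 1.5 and colors for the call. Most bars of the FANC-numbered genes, the nucleases and the BLM complex point to the left, whereas 3 of the 10 members point beyond the upper line.

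Many Fanconi genes are transcribed with the cell cycle, so the S phase list of the Seurat package is given beside them. Of its 43 genes, 9 rose and 6 fell (34.9% regulated, against 37.0% of the loci with a symbol), with a median log2 fold change of 0.23, and *BLM*, *USP1* and *BRIP1* are among the genes it shares with the list of other pathway genes. The sum of the list was 169423 to 172179 normalized reads in DMSO and 211305 to 217111 in THZ531, while the sum over all loci was 55389676 to 56639224 in DMSO and 65875609 to 66820371 in THZ531. With the libraries scaled to equal totals 2 genes of the list rose and 6 fell, and with *RPL34* 0 rose and 9 fell. Its part in the changes of the Fanconi genes was not tested.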

How the data were processed

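PolyA RNA-seq of 6 OVCAR3 libraries (3 DMSO, 3 THZ531; stranded mRNA kit) was analysed. The authors mapped paired-end reads to hg38 with STAR, counted them with featureCounts on FAST DB v2021_3 loci and deposited values normalized with DESeq2. The study's methods and the submitters' processing notes name different versions of STAR (2.7.5a in the notes). The deposited values are a signal per locus, namely read counts divided by the size factor of the library, and 100% of the values above 0 in each library were whole multiples of 1 step (tolerance 0.01 reads), so the reads were recovered. Size factors were 1.078 to 1.26 in DMSO and 0.794 to 0.8797 in THZ531.

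Groups were taken from the sample titles. Values were tested as log2(value + 1) with limma 3.58.1 (trended variance, no covariates) in R 4.3.3 on the 17568 expressed loci. Every p-value that names limma, in any paragraph, is from this fit. Ratios were compared with two-sided exact permutation tests in scipy 1.17.1. The members and lists were chosen with earlier results of these data known. The named genes are the members, the regulated genes of the pathway list (the rest by range or in brief), *CDK12*, *CDK13* and expressed loci overlapping a member. Transcript structures are from GENCODE v44, on the same hg38 build, and the bases from hg38. The fits were tested on simulated data in which few loci were changed, in balanced directions. That simulation does not test the choice of scaling. The values of 1 gene of the pathway list are not reported here, and it stays in the counts of the list.

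Results were recomputed with other pseudocounts (0.1, 10), with other minimums (none, 50), with 3 other scalings, with replicate numbers as blocks, without the variance trend, with adjusted p-values, with a 2-fold threshold and without each library in turn. The recovered reads were also tested with edgeR 4.0.16, which called 2582 loci up and 4281 down, and with DESeq2 1.42.0, which called 2680 up and 4108 down, against 2751 and 4197 with limma.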

Additional observations from a re-analysis of the deposited data

How the results depend on the processing

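Over 19 alternatives, 177 of 190 log2 fold changes of the 10 members kept their direction and their side of the thresholds. Other minimums, the replicate block, the fit without the variance trend, adjusted p-values and the 2-fold threshold leave the log2 fold change itself unchanged. The direction was fixed in advance under these settings, so the 190 values are not independent checks. The scaling moved most calls. With *RPL34*, 1 member rose and 4 fell, and 0 other pathway genes rose. With the same total 0 other pathway genes rose. *FANCD2* turned from 0.07 to -0.17 with the same total and -0.42 with *RPL34*, the size of the scaling shift. With a fold change of 2, 0 other pathway genes rose and 10 fell, as fewer genes pass a higher threshold. With 1 library left out, 1 to 2 other pathway genes rose (*BRIP1* was not called without DMSO replicate 1) and 17 to 18 fell, while 3 to 4 members rose and 1 fell. On the recovered reads, edgeR and DESeq2 each called 3 members up and 1 down and 18 other pathway genes down, among them the 17 called by limma. Deviations of same-numbered libraries correlated between -0.0393 and 0.0186, so they gave no sign of pairing by number. Whether same-numbered libraries shared a culture or a day cannot be told from these values. With the replicate block 3 members rose and 1 fell, and 2 other pathway genes rose and 17 fell, as without it. With 3 libraries against 3, no ratio of partners can reach p below 0.1. Few reads limit the *FANCC* intron locus, whose log2 fold change lay between 1.36 (pseudocount of 10) and 2.76 (pseudocount of 0.1).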

Other observations

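A second stretch of *FANCC* gave a similar picture but did not pass the minimum for expression, so it was not tested, and it was chosen after its values were seen. It is a locus without a symbol in intron 4 (chromosome 9, 95237963 to 95240523), which covers bases 126 to 2686 of the 68501 bases of the intron. Its normalized reads were 0, 0 and 1.6 in DMSO and 17.6, 20.5 and 6.83 in THZ531. It holds 1 copy of AATAAA on the strand of *FANCC*. A further locus in the same intron, at bases 50741 to 51449, had at most 6.30 normalized reads in any library.

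Across the 10 members the log2 fold change and the gene length had a Spearman correlation of 0.62, and the log2 fold change and the exon number 0.55. Over the 13244 expressed genes with a MANE transcript the same values were -0.05 and -0.02. The genes share the same 6 libraries and are not independent, and *FANCF*, with 1 exon, is at the low end of both scales. Lengths were also compared for the other pathway genes with a MANE transcript and a locus of their own. The 16 that fell had a median length of 31.8 kb and the 12 that were not called 18.0 kb. The 2 that rose were 14.8 and 184 kb long. Over all genes the median was 28.8 kb for those that fell, 26.9 kb for those not called and 29.5 kb for those that rose.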
